A study of Mus musculus with 12 samples.

Results

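The nuclear genes of mitochondrial oxidative phosphorylation (OXPHOS) were followed in mouse granulosa cells, which surround the oocyte within the follicle, before and after an ovulatory dose of gonadotropin. The genes were chosen by symbol alone: every symbol starting with Nduf, Uqcr, Cox4 to Cox8 or Atp5, together with Sdha, Sdhb, Sdhc and Sdhd. The rule found 90 of the 18194 genes that the arrays measured with a probe set of a single symbol. Where a gene had several probe sets, the one brightest on average across the 12 arrays stood for it. A further 8 symbols that match the rule stood only on probe sets shared between several symbols and were left out. By role, 6 genes encode core subunits of complex I, 28 accessory subunits of complex I, 8 assembly factors of complex I, 4 complex II, 8 complex III, 19 complex IV and 17 complex V. Ndufa4 and Ndufa4l2 were counted with complex IV, to which the NDUFA4 protein belongs.

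The 12 arrays fell into 4 groups of 3: wild-type (WT) and Ex6DEL cells at 0 h, and both genotypes at 4 h. Ex6DEL mice lack exon 6 of Snf2l, the gene Smarca1, which encodes an ATPase of the ISWI chromatin remodellers. The loxP-flanked exon was removed with a ubiquitously expressed Gata-1 Cre, and the line was afterwards kept on a 129SV background without Cre, so the deletion is not limited to the ovary. WT mice were littermates. At 24 to 26 days of age, females of all groups were injected with PMSG (5 IU, pregnant mare serum gonadotropin) to make follicles grow. The 0 h groups were collected 48 h later with no further hormone. The 4 h groups were then injected with hCG (5 IU, human chorionic gonadotropin), a stand-in for the surge of luteinizing hormone (LH), and were collected 4 h after it. The study asked what Snf2l does in superovulation. Each array held RNA of cells pooled from 5 mice. Whether each of the 3 arrays had a pool of its own is not stated, so p-values measure the spread between these arrays, which may be technical.

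As background, the respiratory chain passes electrons from NADH (complex I) and succinate (complex II) over ubiquinone to complex III, over cytochrome c to complex IV, and on to oxygen. Complexes I, III and IV pump protons across the inner mitochondrial membrane, and complex V, the ATP synthase, makes ATP as the protons return. Complex II is also the succinate dehydrogenase of the tricarboxylic acid cycle. In granulosa cells, mitochondria also hold the first step of progesterone synthesis, the cleavage of cholesterol by CYP11A1.

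The OXPHOS genes were measured well above background as a rule. The values are log2 intensities, on which 1 unit is a doubling, with a floor of 2.21. Of the 90 genes, 80 lay above the median of all probe sets on each of the 12 arrays. Cox4i2, Cox6b2, Cox7b2, Cox8c, Ndufb1 and Ndufb4 lay above it on no array, and Cox7a1, Ndufa4l2, Ndufaf3 and Ndufaf6 on some. By mean level over the arrays, 51 of the genes were among the most highly expressed genes, the tenth of all genes with a mean above 9.89.

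Several arrays stood apart, and their values bear on what follows. Averaged over the 17 measured LH-induced ovulatory genes, the level was 9.17 on Ex6DEL 0 h replicate 3, against 4.56 to 5.51 on the other 0 h arrays and 10.97 to 12.39 at 4 h. The 14 immediate early genes had 11.39 on that array and 8.90 on WT 0 h replicate 1, against 5.87 to 6.52 on the other 0 h arrays. The 10 measured theca and stroma markers, all above the array median on every array, had 12.11 on Ex6DEL 0 h replicate 1 against 7.57 to 9.34 elsewhere. Of the 11 measured granulosa markers 10 lay above the array median throughout, and Amh did on no array. Smarca1 had group means between 10.72 and 11.36, with a genotype difference of 0.04 at 0 h (95% interval -1.05 to 1.13) and -0.04 at 4 h (-1.13 to 1.05). The place of its probe set relative to exon 6 was not examined, so it does not check the labels. The arrays also differed in the level of highly expressed genes as a whole. The median deviation of these most highly expressed genes from their own 12-array means ran from -0.69 on WT 0 h replicate 1 to 0.53 on Ex6DEL 0 h replicate 1.

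Promoter sequence is shown for 4 genes that the results below turn on, because OXPHOS promoters are known for shared binding motifs. In the 250 bases before the start of transcription (RefSeq, GRCm38.p6, both strands searched), 74 of the 90 genes had an entry. The NRF1 motif was found in 12 of the 74 (16.2%), against 4.23% of 27025 mouse promoters of the same length. The ETS motif CCGGAAG was found in 14 (18.9%, against 7.83%), the YY1 motif AAGATGG in 1 (1.35%, against 5.18%) and the CREB motif TGACGTCA in 3 (4.05%, against 1.77%). The GC box GGGCGG stood in 31 (41.9%, against 35.4%), CCAAT in 32 (43.2%, against 37.5%) and TATAAA in 7 (9.46%, against 14.3%). By role, the NRF1 motif stood in 4 of 26 promoters of complex I accessory genes, 4 of 15 of complex V, 2 of 3 of complex II, 1 of 13 of complex IV, 1 of 7 of assembly factors, and none of 5 each of complex I core and complex III genes. A match describes letters and not a site in use. The sequences below run 5′ to 3′ on the strand of the gene and end 1 base before its start. Ndufs8 (chr19:3912775-3913024, minus strand) had the most negative change after hCG in Ex6DEL, and Ndufa6 (chr15:82354292-82354541, minus strand) the third most negative. Cox6a1 (chr5:115348959-115349208, minus strand) had the most negative difference between the responses of the genotypes, and Cox8a (chr19:7217617-7217866, minus strand) the most positive change of complex IV in WT. No window overlaps another annotated gene. Capitals mark NRF1, ETS and CCAAT letters on either strand.
Ndufs8: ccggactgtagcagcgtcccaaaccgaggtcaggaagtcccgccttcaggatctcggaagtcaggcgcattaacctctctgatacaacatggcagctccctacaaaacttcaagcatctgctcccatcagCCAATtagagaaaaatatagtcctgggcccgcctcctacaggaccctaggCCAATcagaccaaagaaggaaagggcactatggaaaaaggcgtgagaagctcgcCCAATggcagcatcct
Ndufa6: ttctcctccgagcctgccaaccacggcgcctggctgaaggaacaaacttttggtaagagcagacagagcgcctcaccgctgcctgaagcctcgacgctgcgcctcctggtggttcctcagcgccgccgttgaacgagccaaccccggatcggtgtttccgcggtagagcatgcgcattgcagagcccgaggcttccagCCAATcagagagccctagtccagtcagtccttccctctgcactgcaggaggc
Cox6a1: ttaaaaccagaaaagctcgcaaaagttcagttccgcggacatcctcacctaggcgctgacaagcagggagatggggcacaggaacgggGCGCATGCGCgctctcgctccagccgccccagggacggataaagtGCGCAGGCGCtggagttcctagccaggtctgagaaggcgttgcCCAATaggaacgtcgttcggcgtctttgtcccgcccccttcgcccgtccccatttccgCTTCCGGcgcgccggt
Cox8a: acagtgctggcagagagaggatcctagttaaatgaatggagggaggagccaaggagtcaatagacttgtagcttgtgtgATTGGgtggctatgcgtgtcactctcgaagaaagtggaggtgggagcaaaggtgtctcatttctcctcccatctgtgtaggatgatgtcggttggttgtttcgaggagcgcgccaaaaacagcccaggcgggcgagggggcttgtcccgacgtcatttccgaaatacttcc
Ndufs8 held 3 CCAAT matches, Ndufa6 and Cox8a 1 each, and Cox6a1 1 beside 2 NRF1 matches and 1 ETS match.

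At 4 h after hCG the OXPHOS genes were lower than at 0 h on the whole in Ex6DEL cells, by a median of -0.94 on the log2 scale, and by -0.19 in WT. After quantile normalization between arrays these medians were -0.57 and -0.49, so the distance between the genotypes depended on the scaling. In Ex6DEL 81 of the 90 genes had a negative change and 7 a positive one. In WT 55 were negative and 31 positive. Complexes I and II had negative medians in both genotypes, and complexes IV and V a positive median in WT as deposited, which the scalings described further on took to 0 or below. Limma, fitted to all genes, called none of the 90 genes at an adjusted p under 0.05 in either response. Over all genes it called 0.929% in WT and 2.17% in Ex6DEL. At an unadjusted p under 0.05, 2 OXPHOS genes were higher and 5 lower in WT, where 6.12% of all genes were higher and 8.28% lower. In Ex6DEL none was higher and 50 were lower, where 4.74% of all genes were higher and 14.2% lower. The 3 arrays of 4 h lay below the 3 of 0 h for 17 genes in WT (all genes, 11.4%) and for 51 in Ex6DEL (all genes, 14.5%). They lay above for 2 genes in WT (all genes, 7.52%) and 1 in Ex6DEL (all genes, 5.13%). All genes above the median level, which hold 80 of the 90 OXPHOS genes, had median changes of -0.07 in WT and -0.34 in Ex6DEL. At an unadjusted p under 0.05, limma had 647 of these 9097 genes higher and 2326 lower in Ex6DEL, and 989 and 1147 in WT. Their 4 h arrays lay above those of 0 h for 742 and below for 2376 in Ex6DEL, and for 1224 and 1643 in WT. All 1820 genes with a mean above 9.89 had median changes of 0.32 in WT and -0.43 in Ex6DEL. The 51 OXPHOS genes among them had -0.09 and -1.06. At an unadjusted p under 0.05, limma had 361 of the 1820 higher and 51 lower in WT, and 137 and 490 in Ex6DEL. Of the OXPHOS genes among them it had 1 higher and 1 lower in WT, and 0 and 34 in Ex6DEL. Markers of granulosa cells and of theca and stroma also had lower values at 4 h in Ex6DEL. Of the 11 granulosa markers 10 had a negative change there, with a median of -1.31 and 3 called, and their mean level was 12.50 to 13.39 on the 0 h arrays and 10.82 to 10.98 on the 4 h arrays. All 10 theca and stroma markers had a negative change, with a median of -2.01 and a mean level of 8.26 to 12.11 against 7.57 to 8.59. In WT the 2 medians were -0.52 and -0.08, with none called by limma and, at an unadjusted p under 0.05, 1 granulosa marker higher and 2 lower. Markers of other cell types did not share the fall in Ex6DEL to that extent. Their medians there were -0.28 for oocyte, 0 for endothelium, 0.10 for ovarian surface epithelium, 0.25 for red blood cell and 0.44 for leukocyte markers. The part of these cells in the OXPHOS values was not tested. As these are bulk samples, less RNA of a gene per cell and fewer cells that express it cannot be told apart.

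**Figure D1:**
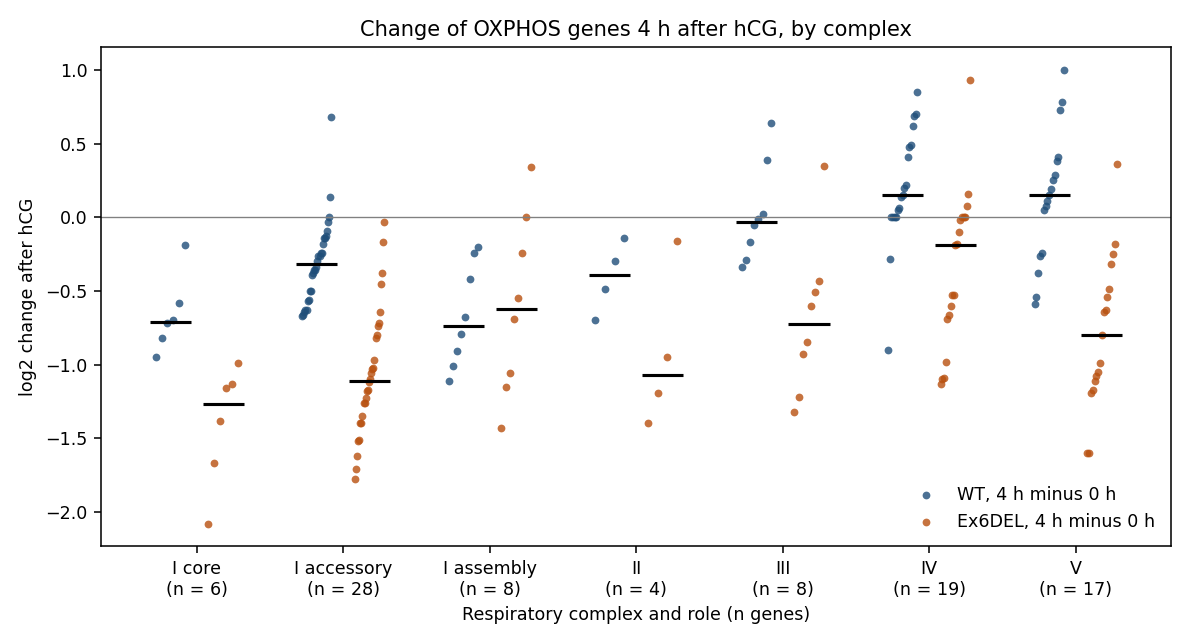
Change of each OXPHOS gene 4 h after hCG on the log2 scale (y axis), by respiratory complex and role (x axis), in WT (blue) and Ex6DEL (orange), with the group median as a black bar. Complex I core genes lie below 0 in both genotypes (medians -0.71 and -1.27), while complexes IV and V have a median of 0.15 in WT, which is 0.00 and -0.34 after quantile normalization, and -0.19 and -0.80 in Ex6DEL. The complex IV medians include genes near background, whose changes in Ex6DEL lie near 0.

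Complex I carried the most negative changes. Its core subunits, which bind the flavin and the iron-sulfur clusters that carry electrons from NADH, had a median change of -0.71 in WT and -1.27 in Ex6DEL, and all 6 were negative in both. Ndufs8, whose protein holds a pair of iron-sulfur clusters near the ubiquinone site, had values of 11.68, 12.07 and 12.02 on the WT 0 h arrays and 10.55, 11.26 and 11.11 at WT 4 h. In Ex6DEL they were 14.04, 12.64 and 11.63 at 0 h and 10.47, 11.13 and 10.48 at 4 h. The 4 h arrays lay below the 0 h arrays in both genotypes, and Ex6DEL 0 h replicate 1 stood highest. The change in WT was -0.95 with a limma adjusted p of 0.488, and that in Ex6DEL -2.08 with 0.0799 (SE 0.53 each). Of the 5 other Ndufs8 probe sets, the 4 above background on all arrays changed by -0.68 to -1.05 in WT and by -1.36 to -2.25 in Ex6DEL. Ndufs7, the subunit of the last cluster before ubiquinone, had 10.29, 10.84 and 11.01 in WT at 0 h against 9.42, 10.23 and 10.34 at 4 h, which overlapped. In Ex6DEL it had 11.89, 11.46 and 10.53 against 9.13, 10.29 and 9.44, with no overlap and a change of -1.67 (SE 0.44, adjusted p = 0.0866).

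The accessory subunits surround this core and are needed for its assembly and stability. Their median change was -0.32 in WT, with 25 of 28 negative, and -1.11 in Ex6DEL, with 28 of 28 negative. Ndufb9, a subunit of the membrane arm, had 14.38, 13.26 and 12.34 on the Ex6DEL 0 h arrays and 11.40, 12.07 and 11.17 at 4 h. The WT arrays lay between 11.69 and 12.41 at both times and overlapped. Its change was -0.36 in WT (SE 0.47) and -1.78 in Ex6DEL (SE 0.47, adjusted p = 0.0866). Ndufa6, a subunit of the LYR family, had 10.58, 10.02 and 9.36 in Ex6DEL at 0 h and 7.81, 8.81 and 8.21 at 4 h, a change of -1.71 (SE 0.48, adjusted p = 0.103). In WT its 0 h arrays (8.35 to 9.66) and 4 h arrays (8.11 to 9.36) overlapped, with a change of -0.30 (SE 0.48).

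Ndufa8 had changes of -0.66 in WT and -1.12 in Ex6DEL (SE 0.28 each), and the arrays of 0 h and 4 h were apart in both. Ndufs5, a small subunit of the intermembrane side, had the most negative genotype difference at 4 h, -1.29 (SE 0.48, limma adjusted p = 1). Its WT 4 h arrays read 5.64, 6.73 and 6.65 and its Ex6DEL 4 h arrays 4.75, 6.08 and 4.32, which overlapped. Another probe set that carries Ndufs5 together with a pseudogene differed by -0.33 there. Ndufa13, also known as GRIM-19, had a genotype difference of -0.64 at 4 h and Ndufa8 of 0.17. Ndufb2 had the second smallest spread over the 12 arrays among the well-measured genes (SD 0.23), with changes of -0.13 in WT and -0.38 in Ex6DEL.

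The assembly factors of complex I build the enzyme and are not part of it. Their median change was -0.73 in WT, with 8 of 8 negative, and -0.62 in Ex6DEL, with 6 of 8 negative. Ndufaf3, which acts early in assembly, had 4.23, 4.81 and 4.86 in WT at 0 h and 3.01, 3.74 and 3.82 at 4 h, with no overlap. In Ex6DEL it had 4.67, 4.30 and 4.00 against 3.25, 3.74 and 2.53, again with no overlap. The changes were -1.11 and -1.15 (SE 0.35 each, adjusted p = 0.199 and 0.124). Ndufaf7, an arginine methyltransferase, had changes of -1.01 in WT and -1.43 in Ex6DEL (SE 0.46 each), and its arrays did not overlap in either genotype. For these 2 genes, and for Ndufaf1 (-0.79 and -0.69) and Ndufaf2 (-0.68 and -0.55), the interaction, the Ex6DEL change minus the WT change, was -0.04 (95% interval -1.17 to 1.09) for Ndufaf3, -0.42 (-1.90 to 1.05) for Ndufaf7, 0.10 (-1.27 to 1.46) for Ndufaf1 and 0.13 (-1.01 to 1.27) for Ndufaf2. Ndufaf4 was higher on all 3 Ex6DEL arrays of 4 h than on those of 0 h. It had 8.49, 8.48 and 8.45 at 0 h and 8.96, 8.74 and 8.74 at 4 h, a change of 0.34 (SE 0.21, adjusted p = 0.445), against -0.20 in WT. The other Ndufaf4 probe set had -0.27 in Ex6DEL. Ndufaf6 read 4.13 and 3.92 on WT 0 h replicates 2 and 3 and between 2.62 and 2.72 on the other 10 arrays, near background. Without WT 0 h replicate 1 it was called in the WT response at -1.36 (adjusted p = 0.000164), in the genotype difference at 0 h at -1.36 (adjusted p = 0.000249) and in the interaction at 1.36 (adjusted p = 0.00172).

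In complex II the changes were negative in Ex6DEL for all 4 subunits, with that of Sdhd nearest 0 on the probe sets used. Sdha, the flavoprotein that oxidises succinate, had 10.98, 11.68 and 11.94 in WT at 0 h and 10.93, 11.35 and 11.41 at 4 h. In Ex6DEL it had 12.42, 12.11 and 11.69 against 11.16, 11.39 and 10.83, with no overlap. Its change was -0.30 in WT and -0.95 in Ex6DEL (SE 0.28 each, adjusted p = 0.684 and 0.119). A second Sdha probe set gave -1.07 in WT and -1.58 in Ex6DEL, so the size of the change in WT differed between probe sets. Sdhb, the iron-sulfur subunit, had changes of -0.70 and -1.40 (SE 0.48 each), and Sdhc, a membrane anchor, of -0.49 and -1.19 (SE 0.42 each). Their Ex6DEL arrays did not overlap between times, and their WT arrays did. Sdhd, the other anchor, had a mean of 9.23 ± 0.19 (SD, n = 3) in WT at 0 h, 9.09 ± 0.50 at WT 4 h, 9.2 ± 0.09 in Ex6DEL at 0 h and 9.04 ± 0.68 at Ex6DEL 4 h. Its changes of -0.14 and -0.16 (SE 0.34 each) had 95% intervals of -0.92 to 0.64 and -0.94 to 0.62. The other Sdhd probe set gave 0 in WT and -0.56 in Ex6DEL, and the other Sdhc probe set -0.11 and -0.25. The order of Sdhc and Sdhd thus depended on the probe set.

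Complex III had a median change of -0.03 in WT and -0.73 in Ex6DEL. Uqcrc1 and Uqcrc2 encode its core proteins and Uqcrfs1 the Rieske iron-sulfur protein. Their changes were -0.29, -0.34 and -0.01 in WT and -1.32, -1.22 and -0.60 in Ex6DEL. The Ex6DEL arrays of the 2 times did not overlap for these 3 genes. Uqcrh, the acidic hinge subunit that takes part in binding cytochrome c, had 8.62, 10.78 and 11.01 in WT at 0 h and 8.46, 11.03 and 10.99 in Ex6DEL at 0 h, while all 6 arrays of 4 h lay between 10.29 and 11.06. Replicate 1 was the low array at 0 h in both genotypes. The changes were 0.64 and 0.35 (SE 0.79 each), and the spread over the 12 arrays (SD 0.90) was among the 3 largest of the well-measured genes, with Cox7c and Ndufs8.

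Complex IV, the cytochrome c oxidase, had a median change of 0.15 in WT, with 14 of 19 positive, and -0.19 in Ex6DEL, with 14 of 19 negative. The 19 include Cox4i2, Cox6b2, Cox7b2, Cox8c, Cox7a1 and Ndufa4l2, which lay below the array median on most or all arrays. Those genes changed by -0.90 to 0 in WT and by -0.18 to 0.08 in Ex6DEL, which draws the medians of the 19 toward 0. The WT median of the 19 was 0.00 after quantile normalization between arrays. Level-dependent centring, an alternative added after the data had been seen, takes out each array's trend with expression level. It was fitted without the genes near background, and the WT median of the 13 complex IV genes left was -0.03, so the gene sets differ. Cox6a1, the common form of a regulatory subunit, had 13.36, 14.14 and 14.06 in WT at 0 h and 14.83, 14.68 and 13.90 at 4 h. In Ex6DEL it had 15.96, 15.08 and 14.12 at 0 h and 13.58 to 14.19 on the 3 arrays of 4 h. The arrays overlapped in both genotypes, and the changes were 0.62 and -1.13 (SE 0.46 each, adjusted p = 0.589 and 0.231). The interaction of -1.75 (SE 0.65, 95% interval -3.24 to -0.26, adjusted p = 0.871) was the most negative of the OXPHOS genes. The second Cox6a1 probe set gave 0.43, -1.10 and -1.53 for the same 3 values. Cox4i1, the common form of the subunit at which ATP regulates the enzyme, had changes of 0.48 and -1.09 and an interaction of -1.56. Cox8a, the common form of the smallest nuclear subunit, had 5.28, 6.48 and 6.28 in WT at 0 h and 6.20, 7.53 and 6.86 at 4 h, a change of 0.85 (SE 0.54), against -0.60 in Ex6DEL.

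Complex IV has isoforms that are limited to certain tissues, and most of them read near background here. Cox4i2, the lung form, Cox6b2 and Cox7b2, the testis forms, and Cox8c lay between 2.21 and 2.73 on all arrays. Cox6a2 and Cox8b, the heart and muscle forms, lay above the array medians on the probe sets used, at 6.01 to 6.68 and 4.68 to 5.53, with SDs over the arrays of 0.17 and 0.27. The second Cox6a2 probe set had a mean of 2.21, the floor, and lay above the array median on 0 arrays. Whether Cox6a2 read above background thus depended on the probe set. Cox7a1, another heart and muscle form, read 3.70, 3.47 and 2.84 on the WT 0 h arrays and between 2.36 and 2.59 on the other 9. Its change in WT was -0.90 (SE 0.18, adjusted p = 0.0636), its genotype difference at 0 h -0.75 (adjusted p = 0.713) and its interaction 0.90 (adjusted p = 0.871). Without WT 0 h replicate 3 these became -1.15, -0.99 and 1.15 and were called, at adjusted p of 0.00147, 0.00474 and 0.0165. Of the common forms, Cox7a2 had changes of 0.05 in WT and -1.10 in Ex6DEL (SE 0.53 each), Cox7a2l, a factor that joins complexes III and IV, 0.14 and -0.98 (SE 0.27 each), and Cox6b1 0.41 and -0.53 (SE 0.35 each). The second Cox6b1 probe set gave 0.51 in WT and 0.15 in Ex6DEL. Ndufa4 had 0.70 and -0.10 (SE 0.37 each), and its relative Ndufa4l2, near background, -0.28 and -0.02. Cox7c read 8.42 on Ex6DEL 4 h replicate 1 and 6.99 on WT 4 h replicate 1, against 5.06 to 5.81 on the other 10 arrays, so its changes of 0.22 and 0.93 (SE 0.85 each) rested on replicate 1.

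**Figure D2:**
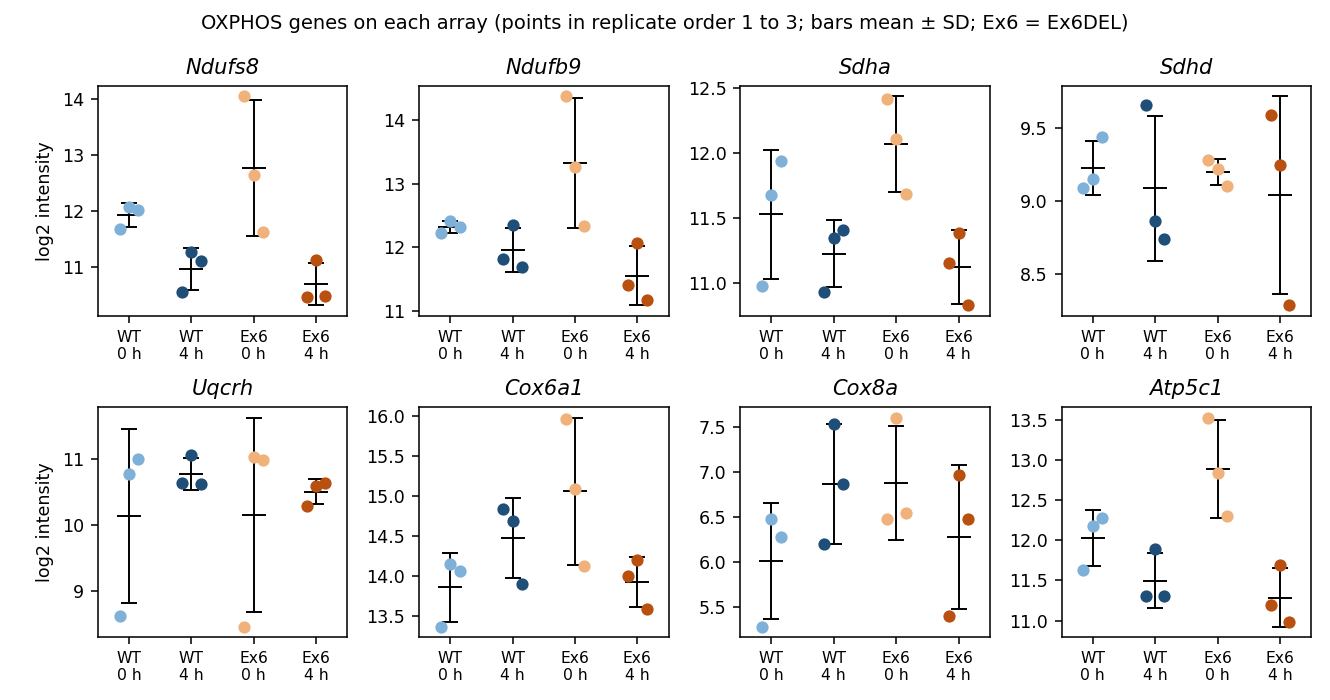
Log2 intensity (y axis, own range for each gene) of 8 OXPHOS genes on each array, by group (x axis), with mean ± SD over the 3 arrays. In Ndufs8 the 4 h arrays lie below the 0 h arrays in both genotypes, in Sdhd the groups overlap, and in Uqcrh the low values at 0 h are replicate 1 of each genotype.

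Complex V had a median change of 0.15 in WT, which was -0.34 after quantile normalization and -0.19 after level-dependent centring, and of -0.80 in Ex6DEL. Atp5c1, the gamma subunit that turns in the catalytic head, had the smallest adjusted p of all OXPHOS genes in Ex6DEL and was chosen for it after its values were seen. It read 13.53, 12.84 and 12.30 in Ex6DEL at 0 h and 11.19, 11.69 and 10.98 at 4 h, a change of -1.60 (SE 0.34, adjusted p = 0.0513). In WT it read 11.63, 12.18 and 12.28 against 11.30, 11.89 and 11.30, which overlapped, with a change of -0.54 (SE 0.34). The second probe set of Atp5c1 had -0.60 in WT against -0.33 in Ex6DEL. The most positive change in WT was that of Atp5mpl, a small subunit of the membrane sector, with 8.42, 9.13 and 9.19 at 0 h and 10.34, 9.70 and 9.70 at 4 h. That change was 1.0 (SE 0.28, adjusted p = 0.144), and in Ex6DEL it was 0.36. Atp5d, the delta subunit, had 12.96, 13.38 and 13.60 in WT at 0 h and 13.71, 14.75 and 13.84 at 4 h, also with no overlap, a change of 0.78 (SE 0.33, adjusted p = 0.331) against -0.49 in Ex6DEL. The second Atp5d probe set gave 0.89 in WT and 0.12 in Ex6DEL, so the sign in Ex6DEL differed between probe sets. Atp5g3, a gene of the c ring through which protons pass, had 0.73 in WT and -0.80 in Ex6DEL (SE 0.37 each).

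Ex6DEL against WT cells asks for a difference between genotypes at each time. At 0 h the OXPHOS genes had a median difference of 0.41, with 76 of 90 higher in Ex6DEL, and limma called none (all genes, 0.0330%). At an unadjusted p under 0.05, 12 were higher (all genes, 3.13%) and 2 lower (all genes, 2.23%), and the arrays did not overlap for 8 higher genes (all genes, 3.96%) and 2 lower genes (all genes, 2.45%). The 12 and the 8 higher genes all lay among the 51 OXPHOS genes with a mean above 9.89. Of all 1820 genes above that level, limma had 299 higher and 20 lower at an unadjusted p under 0.05. Their arrays did not overlap for 326 higher and 25 lower genes. Markers of oocytes, of theca and stroma and of granulosa cells were also higher in Ex6DEL at 0 h. All 12 oocyte markers had a positive difference, with a median of 0.72 and a mean level of 7.01 to 7.88 in Ex6DEL against 6.13 to 7.07 in WT. All 10 theca and stroma markers (median 1.02) and 10 of 11 granulosa markers (median 0.94) were positive as well. The theca and stroma mean was 12.11 on Ex6DEL 0 h replicate 1, against 9.22 and 8.26 on replicates 2 and 3 and 8.07 to 9.34 in WT. Limma called none of these markers, and at an unadjusted p under 0.05 6 oocyte and 2 granulosa markers were higher. Other lists went the other way: all 9 ovarian surface epithelium markers were lower (median -0.42), and 5 of 8 leukocyte markers (median -0.15). Endothelium and red blood cell markers had medians of 0.01 and 0. The most positive OXPHOS differences were those of Cox6a1 (1.2, SE 0.46), Cox4i1 (1.18, SE 0.44), Atp5g3 (1.16, SE 0.37) and Cox7a2 (1.01, SE 0.53), with a limma adjusted p of 0.874 for each. At 4 h the median was -0.28 with 77 lower, and limma called none (all genes, 0%). At an unadjusted p under 0.05, none was higher (all genes, 0.797%) and 1, Ndufs5, was lower (all genes, 0.819%), and the arrays did not overlap for 0 higher (all genes, 0.962%) and 4 lower genes (all genes, 2.02%). The interaction had a median of -0.72, with 79 negative and none called (all genes, 0.0110%). At an unadjusted p under 0.05, 1, Cox7a1, was positive (all genes, 1.13%) and 12 negative (all genes, 2.07%). Of the 12, 11 had a mean above 9.89. Among all 1820 genes above that level, 219 were negative and 12 positive at an unadjusted p under 0.05.

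Highly expressed genes as a whole had genotype differences of the same sign. At 0 h all genes with a mean above 9.89 had a median genotype difference of 0.54, and the 51 OXPHOS genes among them 0.61. At 4 h the same 2 medians were -0.19 and -0.32, and in the interaction -0.74 and -0.93. The 29 OXPHOS genes between this level and the median level of all genes, 4.74, had a difference of 0.21 at 0 h against 0.13 for all genes in that range. After quantile normalization the median OXPHOS difference at 0 h was -0.04 with 48 of 90 negative, and after level-dependent centring it was 0.04. The interaction was -0.04 and -0.17 in the same order. Without Ex6DEL 0 h replicate 1, the array with the high theca and stroma markers, the difference at 0 h was 0.36 and the interaction -0.58. What part the other cell types, the array levels or the deletion have in these values was not tested.

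**Figure D3:**
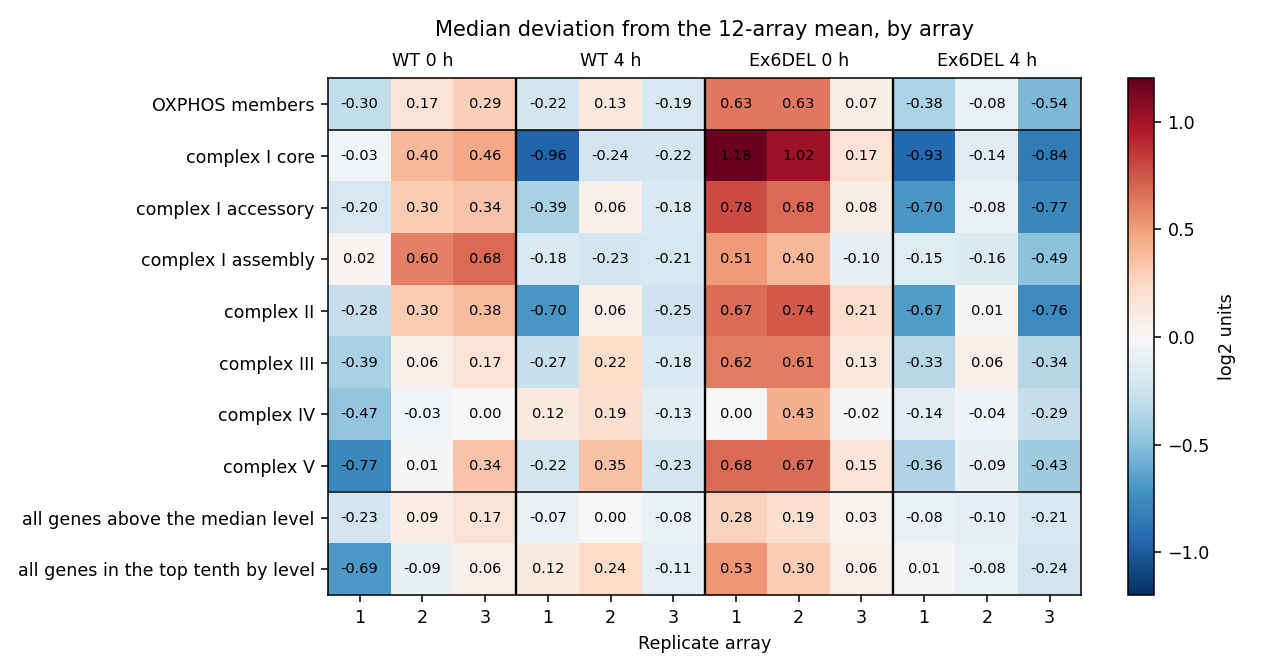
Median deviation of each gene set (rows) from its genes' own 12-array means, in log2 units (colour and number), on each array (columns, in groups of 3). Complex I core genes run from -0.96 on WT 4 h replicate 1 to 1.18 on Ex6DEL 0 h replicate 1, and all genes with a mean above 9.89 are at -0.69 on WT 0 h replicate 1.

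After hCG the medians of complexes I, II and III were negative in both genotypes under all 3 scalings. The median OXPHOS change in WT was -0.19 as deposited, -0.49 after quantile normalization and -0.34 after level-dependent centring. In Ex6DEL it was -0.94, -0.57 and -0.58. After quantile normalization the complex I core genes had -1.05 in WT and -0.88 in Ex6DEL, the accessory subunits -0.65 and -0.82, with 28 of 28 negative in each genotype, and the assembly factors -0.72 and -0.49. Complex II had -0.65 and -0.77, complex III -0.39 and -0.42, complex IV 0.00 and -0.11, and complex V -0.34 and -0.47. On that scale limma called Ndufb6 (-0.85, adjusted p = 0.0370) and Cox7a1 (-0.92, adjusted p = 0.0445) in WT, and Atp5c1 (-1.18, adjusted p = 0.0329) and Ndufb8 (-0.81, adjusted p = 0.0344) in Ex6DEL. These 2 of 90 genes are 2.22% in each response, near the 1.6% of all genes called in WT and the 2.67% in Ex6DEL in the same fits. Level-dependent centring was fitted to genes above the median level, 80 of them OXPHOS genes, and called 6 in Ex6DEL: Ndufs8, Ndufs7, Ndufb9, Ndufa6, Ndufa12 and Atp5c1. That is 7.5%, below the 12% called among all 9097 genes of that fit. Without Ex6DEL 0 h replicate 3, the array with raised ovulatory genes, the deposited values gave 20 called genes in Ex6DEL, all lower, among them Ndufs8 at -2.65 (adjusted p = 0.0188) and Ndufb9 at -2.28 (adjusted p = 0.0203). Of the 20, 16 were complex I subunits, 2 complex III (Uqcrc1 and Uqcrc2) and 2 complex V (Atp5c1 and Atp5k). The 20 are 22.2% of the OXPHOS genes, and in the same fit limma called 6.90% of all genes. Without WT 0 h replicate 1 as well, the count was 26, or 28.9%, against 7.11% of all genes. Leaving out only Ex6DEL 0 h replicate 1, the array with the high theca and stroma markers, gave 0 called OXPHOS genes in Ex6DEL. In that fit their median change in Ex6DEL was -0.74, and 53 of all 18194 genes were called.

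**Figure D4:**
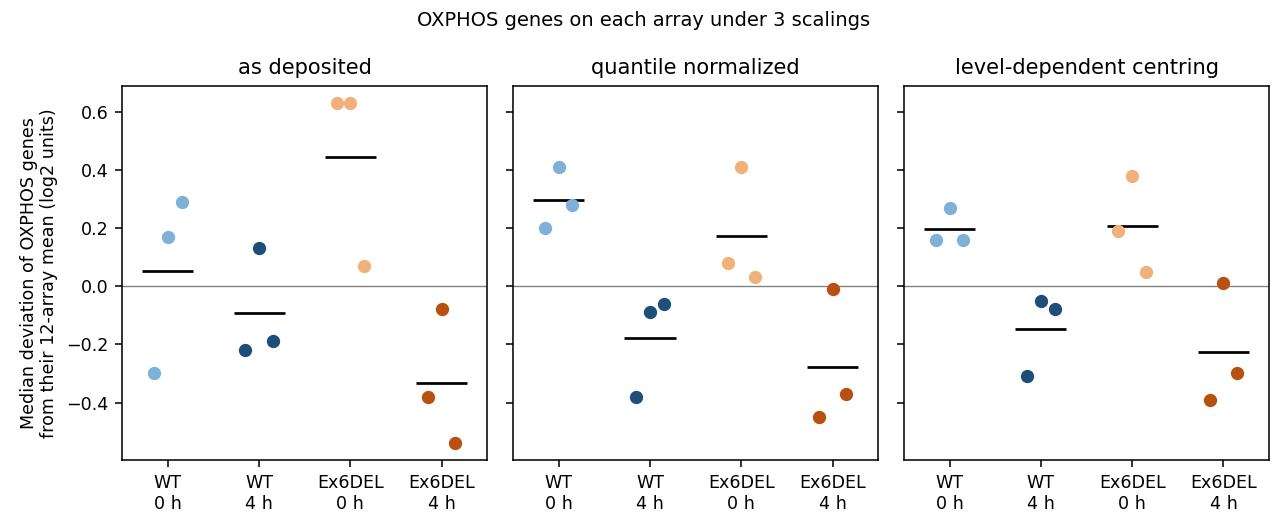
Median deviation of the OXPHOS genes from their 12-array mean in log2 units (y axis) on each array, by group (x axis), under 3 scalings, with the mean of the 3 arrays as a bar. As deposited, Ex6DEL 0 h replicates 1 and 2 stand at 0.63, and after quantile normalization they stand at 0.08 and 0.41, beside WT 0 h arrays at 0.20 to 0.41.

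The complexes also differed in how closely their genes varied together. After the group means were taken out, 2 core genes of complex I had a median correlation of 0.72 over the 12 arrays, and a core and an accessory gene 0.67. Within complex V the median was 0.58, in complex III 0.53, in complex II 0.40, in complex IV 0.32 and among the assembly factors 0.10. These correlations describe 80 well-measured genes on arrays that share RNA, level and normalization.

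Genes that serve the respiratory chain outside the symbol rule gave 6 calls. Nubpl, which delivers iron-sulfur clusters to complex I, fell by 1.88 in Ex6DEL (SE 0.27, adjusted p = 0.0273), from 9.38, 8.77 and 8.44 to 6.56, 7.11 and 7.28, and had a change of -1.15 in WT (adjusted p = 0.0889). It was again called after quantile normalization (-1.65) and level-dependent centring (-1.50), but not with the replicate number as a block or in a fit of the compared groups alone. Lrpprc, which stabilises mitochondrial mRNA, fell by 1.15 in Ex6DEL (adjusted p = 0.0285), with -0.75 in WT (adjusted p = 0.0889), and was also called under both scalings (-0.96 and -0.77) and with the replicate block, but not in the fit of the compared groups alone. Tmem242, listed here with the other complex I assembly factors, fell by 2.35 (adjusted p = 0.0468) in Ex6DEL, and after quantile normalization its adjusted p was 0.0591. Etfa, of the electron transfer flavoprotein, fell by 0.94 (adjusted p = 0.0453) and Idh3b, of isocitrate dehydrogenase, by 1.08 (adjusted p = 0.0384). After quantile normalization these 2 were at -0.65 and -0.76, with adjusted p of 0.0831 and 0.0526. Slc25a3, the mitochondrial phosphate carrier, rose by 1.31 in WT (adjusted p = 0.0368), from 14.89, 14.93 and 15.09 to 16.58, 16.53 and 15.74, but had 0.47 after quantile normalization (adjusted p = 0.427). Tmem242, Etfa, Idh3b and Slc25a3 were not called with the block or in the fit of the compared groups alone.

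By list, counts stand beside 2.17% of all genes called in Ex6DEL and 0.929% in WT, and beside 14.2% and 8.28% lower at an unadjusted p under 0.05. Of 9 genes listed as other complex I assembly factors, 2, Nubpl and Tmem242, fell in Ex6DEL and none in WT, with medians of -0.86 in Ex6DEL and -0.40 in WT. Of 17 electron carrier and ubiquinone synthesis genes 1 fell in Ex6DEL and none in WT (medians -0.44 in Ex6DEL and -0.45 in WT). Of 17 tricarboxylic acid cycle genes 1 fell in Ex6DEL and none in WT (-0.59 in Ex6DEL and -0.17 in WT). None of 29 assembly factors of complexes II to V was called by limma in either response. At an unadjusted p under 0.05, 12 were lower in Ex6DEL and 7 in WT, with medians of -0.77 and -0.57. Among 21 regulators of mitochondrial biogenesis 1 fell in Ex6DEL (medians 0.03 in Ex6DEL and -0.16 in WT), and Polg, the mitochondrial DNA polymerase, had changes of 1.07 in WT and 0.61 in Ex6DEL. Among 11 carriers and uncoupling proteins 1 rose in WT. Limma called none of the 5 measured genes of mitochondrial steroidogenesis. At an unadjusted p under 0.05, 1 of them was higher in WT and 1 lower in Ex6DEL. Fdx1, the electron donor of CYP11A1, had changes of 2.05 in WT and 1.07 in Ex6DEL (adjusted p = 0.135 and 0.354) and Cyp11a1 of 1.2 and 0.00. Cyc1, the cytochrome subunit of complex III that the symbol rule leaves out, had 0.15 in WT and -1.13 in Ex6DEL, and the ATP synthase inhibitor Atpif1 had -0.35 and -0.86.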

How the data were processed

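RNA of granulosa cells was measured on 12 arrays, 3 in each of 4 groups. For each of 45101 probe sets the authors deposited a log2 intensity on every array. GCRMA, which corrects background, normalizes between arrays and summarises probes, is named per the submitters' processing notes, and its version was not given in the sources used here. Probe sets were named through GEO's platform annotation: 34958 carried 1 gene symbol, 932 several and 9211 were not listed. The first kind gave 18194 genes.

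All genes and arrays entered a single limma fit (version 3.58.1, R 4.3.3, lmFit and eBayes) with 5 contrasts, two-sided, and Benjamini-Hochberg adjustment over all genes. Called means an adjusted p under 0.05. The code was tested on simulated data. Errors are standard errors of the model (SE) or SDs over 3 arrays, and the number of arrays limits the precision.

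The genes and lists were chosen with earlier results of these data known. Named genes are the called ones, the 4 most positive and 4 most negative of each contrast (among genes above the median of all probe sets in a group compared), complex II, isoforms, and the 3 with the largest and the 3 with the smallest spread among those above the median on every array. Chosen after their values were seen were Atp5c1, Uqcrc1, Uqcrc2, Uqcrfs1, Ndufaf2, those called under an alternative, and genes named for lying near background. Of the other lists, up to 3 genes each with the smallest p are named, and Atpif1. Promoters are RefSeq's.

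Alternatives were quantile normalization, a shift of the arrays to one median of the genes above the median level, 2 filters on low values, averaging a gene's probe sets, each probe set by itself, 2 other error models, a fit of the compared groups alone, a replicate block, a threshold of 0.01, and arrays left out. Level-dependent centring, a loess of each array's deviations on the level, was added after the data had been seen.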

Additional observations from a re-analysis of the deposited data

How the results depend on the processing

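The median OXPHOS change kept its sign in both hCG responses and at 4 h under every alternative run. Quantile normalization turned the genotype difference at 0 h to -0.04 and moved the medians to -0.49 in WT, -0.57 in Ex6DEL and -0.04 in the interaction, with 2 genes called in each response (2.22%, against 1.6% of all genes in WT and 2.67% in Ex6DEL). Level-dependent centring gave 0.04 at 0 h, -0.58 in Ex6DEL with 6 of 80 called (7.5%, all genes 12%), and -0.17 in the interaction. The shift to one median gave -0.60 in Ex6DEL, with 1 called in each response (1.11%, all genes 2.87% in WT and 4.30% in Ex6DEL), and moved the median change of all genes in Ex6DEL from -0.01 to 0.33. The mean of all probe sets gave -0.63 in Ex6DEL. With genes above the median level only, 21 of 80 were called in Ex6DEL (26.2%, all genes 14.7%). Array weights gave 8 in WT (8.89%, all genes 12.6%) and 1 in Ex6DEL (1.11%, all genes 2.27%). With both Ex6DEL 0 h replicate 3 and WT 0 h replicate 1 left out there were 26 called in Ex6DEL (28.9%, all genes 7.11%) and 1 each in WT, the genotype difference at 0 h and the interaction. The cause of these shifts was not tested.

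Leaving out each array in turn gave 0 to 1 called genes in WT (medians -0.33 to -0.04), 0 to 20 in Ex6DEL (-1.07 to -0.74), 0 to 1 in the difference at 0 h (0.24 to 0.61), 0 to 0 at 4 h (-0.41 to -0.13) and 0 to 1 in the interaction (-0.94 to -0.51). The 20 came without Ex6DEL 0 h replicate 3 (22.2%, all genes 6.90%). The other single calls came without WT 0 h replicate 1 (Ndufaf6 in 3 comparisons, Ndufb3 in Ex6DEL) and without WT 0 h replicate 3 (Cox7a1 in 3, Cox7a2l in Ex6DEL). Of the 6 calls outside the symbol rule, Nubpl passed in 8 of the 12 fits without one array, Lrpprc in 7, Slc25a3 in 3, Etfa and Idh3b in 2 each and Tmem242 in 1. The fit of the compared groups alone called none of the 6, and the replicate block only Lrpprc.

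The replicate numbers share no stated origin. Deviations of same-numbered arrays correlated at -0.37 to 0.73 over 18 pairs (median 0.21), and those of different number at -0.63 to 0.45 over 36 pairs (median -0.09). By the median, same-numbered arrays were thus more alike, and the highest value was that of the replicate 1 arrays of 4 h. The main fit did not pair the arrays because no origin of the numbers is stated. Whether they mark a pairing or a batch was not tested. With the replicate block 0 OXPHOS genes were called in each of the 5 comparisons. At an unadjusted p under 0.05 the counts, both directions together, were 12, 58, 20, 3 and 25 for WT, Ex6DEL, 0 h, 4 h and the interaction. The same counts over all genes were not taken in that fit, so these do not tell OXPHOS genes from genes as a whole. For 65 other probe sets of 44 OXPHOS genes, the sign matched that of the probe set used for 54 in WT and 57 in Ex6DEL. The sizes were smaller on the other probe sets. Their medians were -0.21 in WT and -0.76 in Ex6DEL, against -0.26 and -1.06 for the probe sets used. For the genotype difference they were 0.35 against 0.61 at 0 h and -0.26 against -0.28 at 4 h. In the interaction they were -0.61 against -0.88.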

Other observations

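Probe sets that carry several symbols were outside the tests and measure genes that the symbol rule names. A probe set of Ndufs6 and Ndufs6b had means of 10.52 ± 0.81 (SD, n = 3) in WT at 0 h, 10.49 ± 0.25 at WT 4 h, 10.78 ± 0.46 in Ex6DEL at 0 h and 10.15 ± 0.27 at Ex6DEL 4 h. A probe set of Ndufa11 and Ndufa11b had 8.78 ± 0.18, 8.51 ± 0.19, 9.19 ± 0.47 and 8.24 ± 0.16 in the same order. One of Ndufab1 and its pseudogene had 10.62 ± 0.31, 10.04 ± 0.28, 11.11 ± 0.54 and 9.84 ± 0.57. The single-symbol probe set of Ndufb4 read near background, between 2.25 and 2.76, whereas one that Ndufb4 shares with Ndufb4b and Ndufb4c had 9.43 ± 0.79, 9.05 ± 0.45, 9.66 ± 0.40 and 8.60 ± 0.49. The signal of the shared probe set cannot be assigned to one of the 3 genes.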
